A study of Saccharomyces cerevisiae with 12 samples.

Results

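KAR2 encodes the Hsp70 chaperone of the endoplasmic reticulum (ER) of budding yeast, and LHS1, SIL1, SCJ1, JEM1 and ERJ5 encode cofactors that act on it. These 6 genes were taken by gene name, or else by synonym, from the 6347 features of the deposited expression table, and all 6 were found by name. The study compared 2 strains of *Saccharomyces cerevisiae*, each a D452-2 laboratory strain with the plasmid pRS316 carrying a GFP-tagged copy of cdt-1, which in the fungus *Neurospora crassa* encodes a transporter of cellodextrins with many membrane spans. In the strain called OPT the transporter gene was recoded for the host, and in the strain called NC it kept its endogenous codons. Total RNA from cells in mid-exponential growth gave 3 mRNA libraries of OPT and 3 of NC. Both strains thus carried the transporter, and no strain without it was analysed here. The series also has 6 libraries of ribosome footprints, which were not used here, so every value is an mRNA level.

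Hsp70 chaperones hold and release unfolded stretches of protein in a cycle driven by ATP. J proteins bring substrates to the Hsp70 and make it hydrolyse ATP, which closes its grip, and nucleotide exchange factors swap ADP for ATP, which opens it again. In the ER, Kar2 pulls new proteins through the translocon, folds them, and passes those that fail to fold to degradation. KAR2 is the textbook target of the unfolded protein response, in which the sensor Ire1 splices the HAC1 mRNA and the Hac1 protein switches on ER folding genes.

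Levels were the authors' normalized RPKM, a unit that by its name scales reads by gene length and by sequencing depth. The values of each library added up to nearly the same total (999285 to 999421), so they are shares of that total. How they were normalized further is not given, and comparisons between genes and between libraries rest on this scaling. From the step size of the low values and gene lengths, the features matched to RefSeq held an estimated 33400000 to 43200000 reads in OPT libraries and 23400000 to 30400000 in NC libraries, and every member was worth at least 1354 reads in every library. The deposited row of the recoded cdt-1 had 420, 557 and 530 RPKM in OPT and was listed at 0 in NC, and the row of the endogenous version was listed at 0 in OPT and stood at 518, 506 and 567 RPKM in NC. NC replicate 3 stood apart from its group: its log2 levels correlated at 0.979 and 0.985 with NC replicates 1 and 2 across genes, against 0.992 between those libraries and at least 0.991 between OPT libraries. All 6 members had their highest level in NC replicate 3, as did 21.2% of all features tested, so results are also given without it.

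All 6 members fell in OPT. Of 5982 yeast features tested with limma, 13.8% were lower in OPT at an adjusted p under 0.05 and 5.38% were higher. In each member the highest OPT library lay below the lowest NC library, which held for 27.6% of all features tested. The members' log2 fold changes, OPT minus NC, ran from -1.55 to -0.62 with a median of -0.84, against -0.06 over all features tested. With all libraries in the fit, SIL1 had the lowest log2 fold change of all features tested. Counting the gene itself, 5 features were at or below the value of KAR2, and 36, 98, 118 and 186 were at or below those of LHS1, JEM1, SCJ1 and ERJ5. These ranks include NC replicate 3 and were not recomputed without it. KAR2 lay below EUG1 and MCD4 with all libraries (-1.30, -1.24 and -1.23). Without NC replicate 3 it lay above both (-1.02, -1.03 and -1.13). In bulk RNA, fewer cells with a transcript and less of it per cell cannot be told apart.

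**Figure D1:**
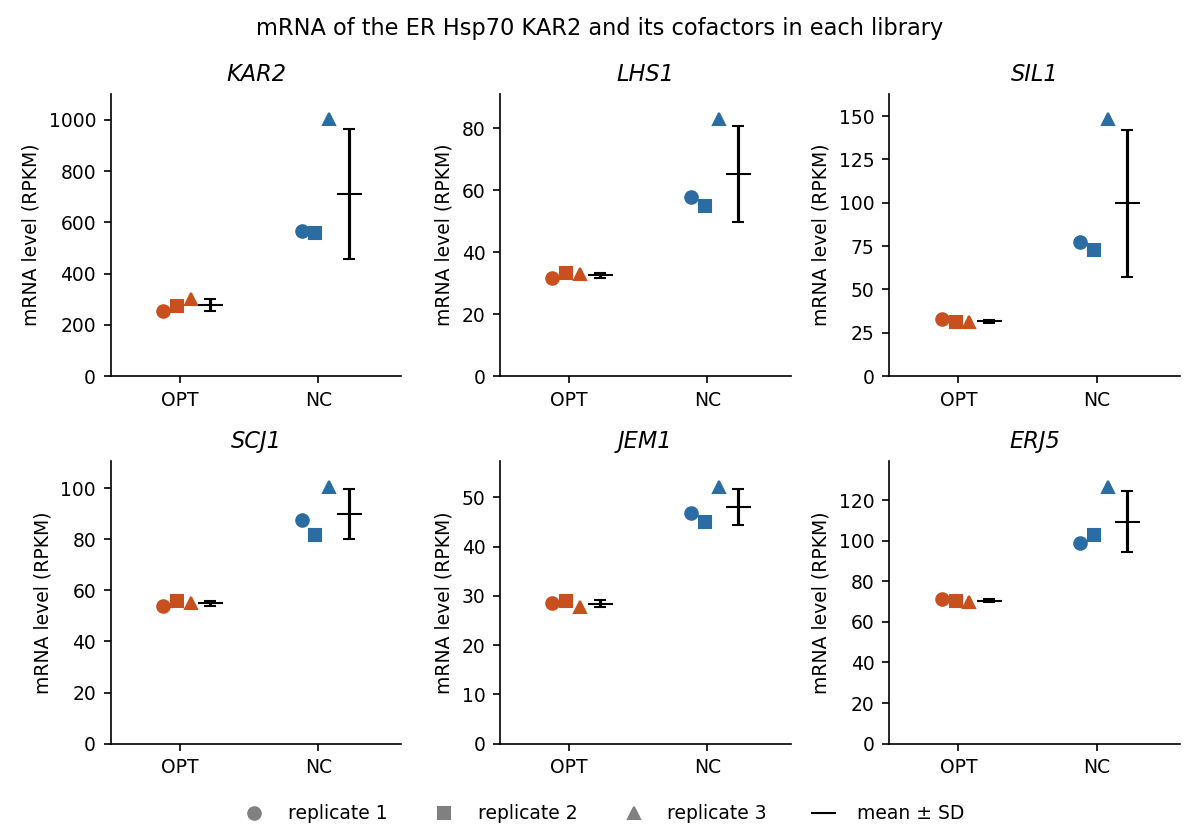
mRNA level in RPKM (vertical axes, from 0) of KAR2 and its 5 cofactors in the 3 OPT and 3 NC libraries, with a marker shape for each replicate and the mean ± SD beside the points. The OPT libraries lie close together and below all NC libraries in each of the 6 genes, and NC replicate 3 is the highest point in each.

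KAR2 itself (YJL034W, chromosome X, 381327 to 383375 on the plus strand, build R64) had 255, 274 and 302 RPKM in OPT and 567, 560.0 and 1002 RPKM in NC. The coefficient of variation was 8.54% in OPT and 35.7% in NC, where replicate 3 stood at 1.78 times the mean of NC replicates 1 and 2. The means were 277 ± 23.7 RPKM in OPT and 710 ± 253 RPKM in NC (SD, n = 3 each), a 2.56-fold lower level in OPT. The log2 fold change was -1.30 with a standard error of 0.23 and a 95% interval of -1.84 to -0.76 (limma adjusted p = 0.0114). KAR2 kept its sign under each of 13 alternatives but not its call: the adjusted p was 0.0533 without OPT replicate 1 and 0.0518 without OPT replicate 2, and 0.0015 to 0.0382 otherwise. Without NC replicate 3 the log2 fold change was -1.02 (adjusted p = 0.0015).

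The exchange factors were the cofactors with the larger falls. SIL1 encodes a dedicated nucleotide exchange factor of Kar2 (YOL031C, chromosome XV, 266264 to 267529, minus strand). Its level was 32.8, 31.2 and 31.0 RPKM in OPT and 77.6, 73.0 and 148 RPKM in NC. The OPT values were nearly alike, whereas NC replicate 3 held 1.97 times the mean of the other NC libraries, the widest gap among the members. SIL1 was 3.15-fold lower in OPT, with a log2 fold change of -1.55 (standard error 0.25, 95% interval -2.15 to -0.94, limma adjusted p = 0.00949). Without NC replicate 3 the log2 fold change of SIL1 was -1.22 (adjusted p = 0.000161), again the lowest among the members.

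LHS1 encodes a large Hsp70-related protein of the ER lumen that also serves Kar2 as an exchange factor (YKL073W, chromosome XI, 296430 to 299075, plus strand). It had 31.6, 33.2 and 32.9 RPKM in OPT and 57.7, 54.9 and 82.9 RPKM in NC. NC replicate 3 was again the high library, at 1.47 times the mean of the other NC libraries. LHS1 was 2.00-fold lower in OPT, a log2 fold change of -0.96 (standard error 0.15, 95% interval -1.31 to -0.60, limma adjusted p = 0.00831). Without NC replicate 3 the log2 fold change of LHS1 was -0.77 (adjusted p = 0.000626).

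The 3 J proteins fell by less in size but with a tighter spread. SCJ1 encodes a soluble J protein of the lumen, a homolog of bacterial DnaJ (YMR214W, chromosome XIII, 695350 to 696483, plus strand). It had 54.0, 56.0 and 55.0 RPKM in OPT and 87.5, 81.6 and 101 RPKM in NC, with no overlap between the strains. Its log2 fold change was -0.69 (standard error 0.09, 95% interval -0.90 to -0.49, limma adjusted p = 0.0040).

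JEM1 encodes a J protein of the ER membrane that is also needed when nuclei fuse during mating (YJL073W, chromosome X, 303181 to 305118, plus strand). It had 28.6, 29.0 and 27.7 RPKM in OPT and 46.8, 45.1 and 52.2 RPKM in NC, again with no overlap. Its log2 fold change was -0.73 (standard error 0.07, 95% interval -0.90 to -0.56), with the smallest limma adjusted p of the members at 0.00168. NC replicate 3 stood at 1.14 times the mean of NC replicates 1 and 2, the narrowest gap among the members.

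ERJ5 encodes a type I membrane protein with a J domain (YFR041C, chromosome VI, 237368 to 238255, minus strand). It had 71.1, 70.4 and 69.9 RPKM in OPT and 98.7, 103 and 127 RPKM in NC. ERJ5 had the smallest change of the members, a log2 fold change of -0.62 (standard error 0.10, 95% interval -0.86 to -0.38, limma adjusted p = 0.00903). Without NC replicate 3 the log2 fold changes of SCJ1, JEM1 and ERJ5 were -0.61, -0.67 and -0.51, all with an adjusted p of at most 0.00244. The 5 cofactors kept their calls under each of the 13 alternatives. Without OPT replicate 1 or OPT replicate 2, 5 members were called lower, and the share of all features called lower was then 5.55 and 3.80%.

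In both strains KAR2 was by far the most abundant of the 6 mRNAs and JEM1 the least abundant. The level of KAR2 was above that of 90.1% of yeast features in OPT and of 96.1% in NC, while JEM1 lay above 33.6% in OPT and 51.8% in NC. In OPT the order by mean RPKM was KAR2 (277), ERJ5 (70.5), SCJ1 (55.0), LHS1 (32.6), SIL1 (31.7) and JEM1 (28.4), and of the neighbours in that order LHS1 and SIL1 alone overlapped. In NC it was KAR2 (710), ERJ5 (109), SIL1 (99.6), SCJ1 (89.9), LHS1 (65.2) and JEM1 (48.0). The place of SIL1 above SCJ1 came from NC replicate 3 (148 against 101 RPKM). In NC replicates 1 and 2 SIL1 lay below SCJ1 (77.6 against 87.5 and 73.0 against 81.6 RPKM). The NC values of SIL1 overlapped those of both ERJ5 and SCJ1, and those of SCJ1 and LHS1 overlapped too. SIL1 was the member whose place shifted most: it lay above 37.3% of yeast features in OPT and above 73.5% in NC, by means that include NC replicate 3.

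Dividing each cofactor by KAR2 within a library removes the library's scale and compares the members' balance. Relative to KAR2, the J proteins stood higher in every OPT library than in any NC library, whereas the sum of the exchange factors overlapped between the strains. SCJ1, JEM1 and ERJ5 summed to 60.3, 56.7 and 50.5% of KAR2 RPKM in OPT and to 41.1, 41.0 and 27.9% in NC. The strains did not overlap, and the log2 difference in the ratio, OPT minus NC, was 0.63 (exact two-sided permutation test, p = 0.1, the smallest that 3 against 3 can give; Benjamini-Hochberg adjusted p = 0.117 over 7 ratios). None of the 7 ratios could thus pass a threshold of 0.05. Without NC replicate 3 the log2 difference of that summed ratio was 0.44.

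LHS1 and SIL1 summed to 25.3, 23.5 and 21.1% of KAR2 RPKM in OPT and to 23.9, 22.8 and 23.1% in NC, and the strains overlapped. The mean was 23.3 ± 2.06% in OPT and 23.3 ± 0.537% in NC (SD, n = 3 each; exact permutation p = 1). This sum joined opposite differences. LHS1 made up 12.4, 12.1 and 10.9% of KAR2 in OPT and 10.2, 9.81 and 8.27% in NC, whereas SIL1 made up 12.9, 11.4 and 10.3% in OPT and 13.7, 13.0 and 14.8% in NC. The ratio of each gene did not overlap between the strains, although that of SIL1 came close to doing so (exact permutation p = 0.1 for each, adjusted p = 0.117).

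**Figure D2:**
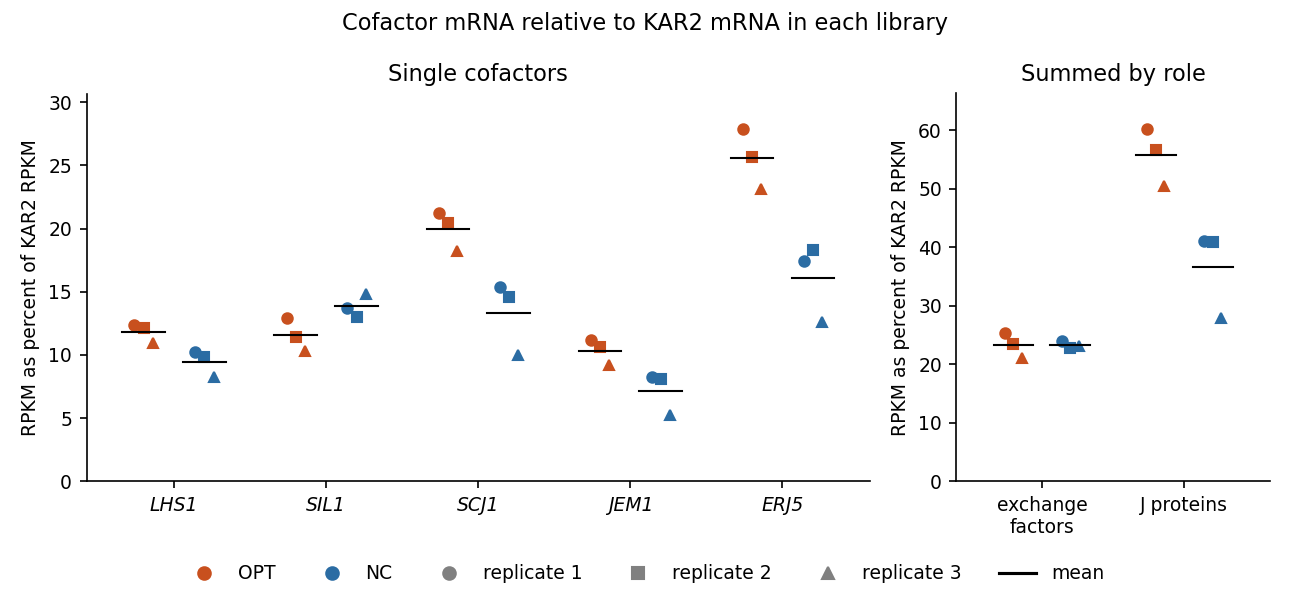
RPKM of each cofactor (left) and of the cofactors summed by role (right) as a percent of KAR2 RPKM in the same library (vertical axes, from 0), with a point for each OPT and NC library and a bar at the mean. The summed J proteins sit at 50.5 to 60.3% in OPT and 27.9 to 41.1% in NC, while the summed exchange factors share a mean of 23.3% in both strains.

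The members moved together across the libraries. On the log2 scale, the 15 pairs of members had Pearson correlations of 0.961 to 0.997 over the 6 libraries, a description of 6 points that share the strain difference, the library scale and NC replicate 3. The size of the swing differed between members. Set against its own mean over the 6 libraries, SIL1 ran from -0.80 in OPT replicate 3 to 1.42 in NC replicate 3 and KAR2 from -0.77 in OPT replicate 1 to 1.20 in NC replicate 3. ERJ5 ran from -0.32 in OPT replicate 3 to 0.53 in NC replicate 3. SIL1, KAR2 and LHS1, which had the largest falls, were also the members with the highest NC replicate 3 relative to the other NC libraries. Summed over the 6 members, mRNA amounted to 473, 494 and 519 RPKM in OPT and 936, 917 and 1512 RPKM in NC.

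**Figure D3:**
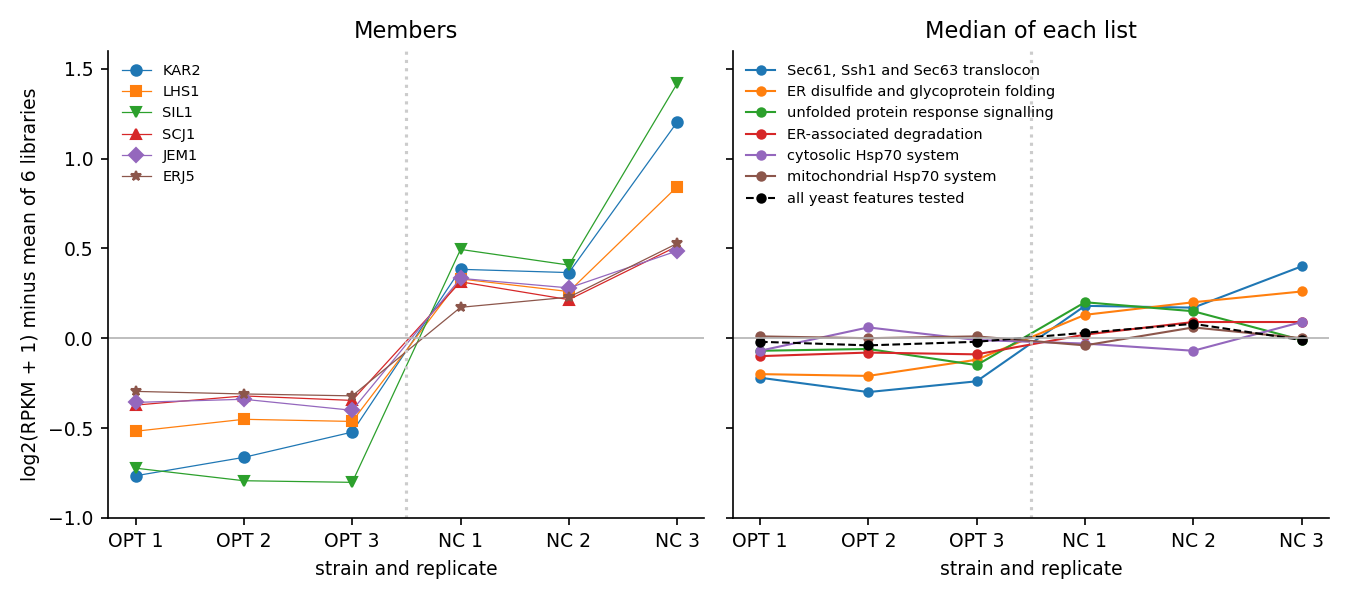
log2(RPKM + 1) minus its mean over the 6 libraries (vertical axis) in each library (horizontal axis), for the 6 members on the left and for the median gene of each related list on the right, with all tested yeast features as a dashed line; the lines only join points of a gene or list. Single members lie at -0.80 to -0.30 in OPT and at 0.17 to 1.42 in NC, and their median at -0.45 to -0.40 in OPT and 0.27 to 0.69 in NC. The median of the cytosolic Hsp70 list, whose genes went both ways, lies between -0.07 and 0.09.

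Kar2 works at the inner mouth of the translocon, where the J protein Sec63 recruits it. Of 9 translocon genes, 7 fell and none rose, with a median log2 fold change of -0.52. The shares of all features tested that were called lower and higher were 13.8 and 5.38%. SEC63 stood at 64.7 ± 2.76 RPKM in OPT and 91.2 ± 6.31 RPKM in NC (SD, n = 3 each), a log2 fold change of -0.49 (limma adjusted p = 0.00734), against -0.73 to -0.62 for the 3 J proteins among the members, a difference that was not tested. SEC66 and SEC72, subunits of the Sec63 complex, changed by -0.69 and -0.57, SEC62 of the same complex by -0.45, and the channel genes SEC61, SSS1 and SBH1 by -0.53, -0.52 and -0.58 on the log2 scale. SSH1 and SBH2, of the alternative Ssh1 channel, did not pass (log2 fold changes -0.25 and -0.19, adjusted p = 0.109 and 0.216). Without OPT replicate 2 the count was 3, namely SEC63, SEC66 and SEC72, which kept their calls under every alternative tried. The share of all features called lower without OPT replicate 2 was 3.80%. SEC61 lost its call with equal library medians, with quantile normalization, without the filter on low values and without OPT replicate 1 or OPT replicate 2, with an adjusted p of up to 0.109 among these. SEC62 lost its call with equal medians and without any 1 OPT library (adjusted p up to 0.0852).

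Of 13 genes for disulfide formation and glycoprotein folding in the ER, 9 fell and none rose, with a median log2 fold change of -0.33. Across all features tested, 13.8% were called lower and 5.38% higher. EUG1, a protein disulfide isomerase, had 25.4, 24.7 and 28.3 RPKM in OPT and 53.7, 54.6 and 84.6 RPKM in NC (log2 fold change -1.24). ERO1, a thiol oxidase needed for oxidative folding in the ER, FPR2, a prolyl isomerase, and MPD1, of the disulfide isomerase family, changed by -1.07, -1.01 and -0.99. All 4 genes, EUG1 included, kept their calls under every alternative tried. PDI1, the main disulfide isomerase, stood at 413 ± 34.1 RPKM in OPT and 679 ± 149 RPKM in NC (log2 fold change -0.70, limma adjusted p = 0.0248). The PDI1 call was lost with equal library medians and without any 1 OPT library (adjusted p up to 0.0934). Its log2 fold change was -0.53 without NC replicate 3. The calls on CPR5, CWH41, CNE1 and GTB1 rested on smaller changes of -0.38 to -0.22. MPD2, ERV2, ROT2 and EPS1 did not pass, with log2 fold changes of -0.26, -0.33, -0.02 and 0.11. The count was 4 without OPT replicate 1 or OPT replicate 2, and 5 without OPT replicate 3, without NC replicate 2 or with equal library medians. In the same order, the share of all features called lower was then 5.55, 3.80, 5.67, 8.40 and 8.21%.

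HAC1 was the single gene called among 4 of unfolded protein response signalling, and it was lower in OPT. The share of all features called lower was 13.8%. HAC1 had 271, 290 and 283 RPKM in OPT and 410, 404 and 579 RPKM in NC, with NC replicate 3 highest as in the members (log2 fold change -0.70, standard error 0.14, limma adjusted p = 0.0190). These RPKM do not separate spliced from unspliced HAC1 mRNA. IRE1, TRL1 (the ligase that joins the HAC1 exons) and PTC2 (a phosphatase of Ire1) had log2 fold changes of -0.07, -0.15 and -0.19 and did not pass. The HAC1 call was lost without any 1 OPT library (adjusted p up to 0.0755), which left a count of 0, and 2 genes, HAC1 and TRL1, were called without NC replicate 3. The share of all features called lower was 3.80 to 5.67% without 1 OPT library and 25.1% without NC replicate 3.

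Of 12 genes for ER-associated degradation, to which Kar2 hands misfolded proteins, 2 fell, DFM1 and DER1, which both encode derlin family proteins (log2 fold changes -0.71 and -0.66). A count of 2 in 12 is near the 13.8% of all features called lower. The ligase gene HRD1 had 36.2, 34.4 and 36.8 RPKM in OPT and 37.5, 45.3 and 58.6 RPKM in NC and did not pass (adjusted p = 0.137). The median of this list was -0.16. Its count was 0 without OPT replicate 1 or OPT replicate 2, and it was 1 without OPT replicate 3 or NC replicate 2, with equal library medians, with quantile normalization or without the filter on low values.

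The Hsp70 systems of the cytosol and the mitochondria, each with its own J proteins and exchange factors, were set beside that of the ER. In the cytosolic list 3 of 19 genes fell and 3 rose, with a median log2 fold change of -0.04. Over all features tested, 13.8% were called lower, a share near that of the falls in this list, and 5.38% higher. SSA1 had 1321, 1179 and 1410 RPKM in OPT and 521, 963 and 1018 RPKM in NC (adjusted p = 0.0997), and SSA2, SSA4, SSB1 and SSB2 did not pass either, with log2 fold changes of -0.04, 0.35, -0.15 and -0.14. SSA1 and SSA2 are near-identical copies, as are SSB1 and SSB2, so their separate values are uncertain. SSA3, a stress-inducible Hsp70, SSE2, an exchange factor of the Hsp110 type, and XDJ1, a J protein, rose by 0.96, 0.79 and 0.39 on the log2 scale. SSA3 kept its call under the 13 alternatives, while SSE2 lost it without any 1 OPT library (adjusted p up to 0.0811) and XDJ1 without OPT replicate 2 (adjusted p = 0.0514). ZUO1 and SSZ1, which form the ribosome-associated complex, fell by 0.55 and 0.54 on the log2 scale. SNL1, an Hsp70 cofactor anchored in the ER membrane, fell by 0.48. The count of rises was 1 without OPT replicate 2, 5 without NC replicate 1 and 7 without NC replicate 3. The share of all features called higher was then 2.24, 5.84 and 7.51%.

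In the mitochondrial list of 10 genes, SSC1, the main Hsp70 of the matrix, stood at 294 ± 6.51 RPKM in OPT and 270 ± 29.1 RPKM in NC and did not pass (adjusted p = 0.355). Its exchange factor gene MGE1 and J protein gene MDJ1 had log2 fold changes of -0.19 and 0.15 and did not pass. ECM10, a minor Hsp70 gene, rose by 0.27 on the log2 scale (adjusted p = 0.0493), a call that was lost without any 1 library other than NC replicate 3, without the filter on low values and with a common prior variance. Without NC replicate 3, 1 gene of the list was called lower, PAM16, which had a log2 fold change of -0.29 with all libraries (adjusted p = 0.0561). Of all features, 25.1% were called lower without NC replicate 3, and 5.38% were called higher with all libraries. A sum over 10 Hsp70 genes of the 3 compartments took in KAR2, SSA1 to SSA4, SSB1, SSB2, SSC1, SSQ1 and ECM10. SSZ1, SSE1, SSE2 and LHS1 were left out of it. Within it, SSA1 to SSA4 together averaged 2148 RPKM in OPT and 1642 RPKM in NC, with overlap between the strains. KAR2 made up 6.86, 7.34 and 7.57% of the summed RPKM in OPT and 16.7, 15.3 and 22.5% in NC. The strains did not overlap in this share (exact two-sided permutation p = 0.1, the smallest possible).

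**Figure D4:**
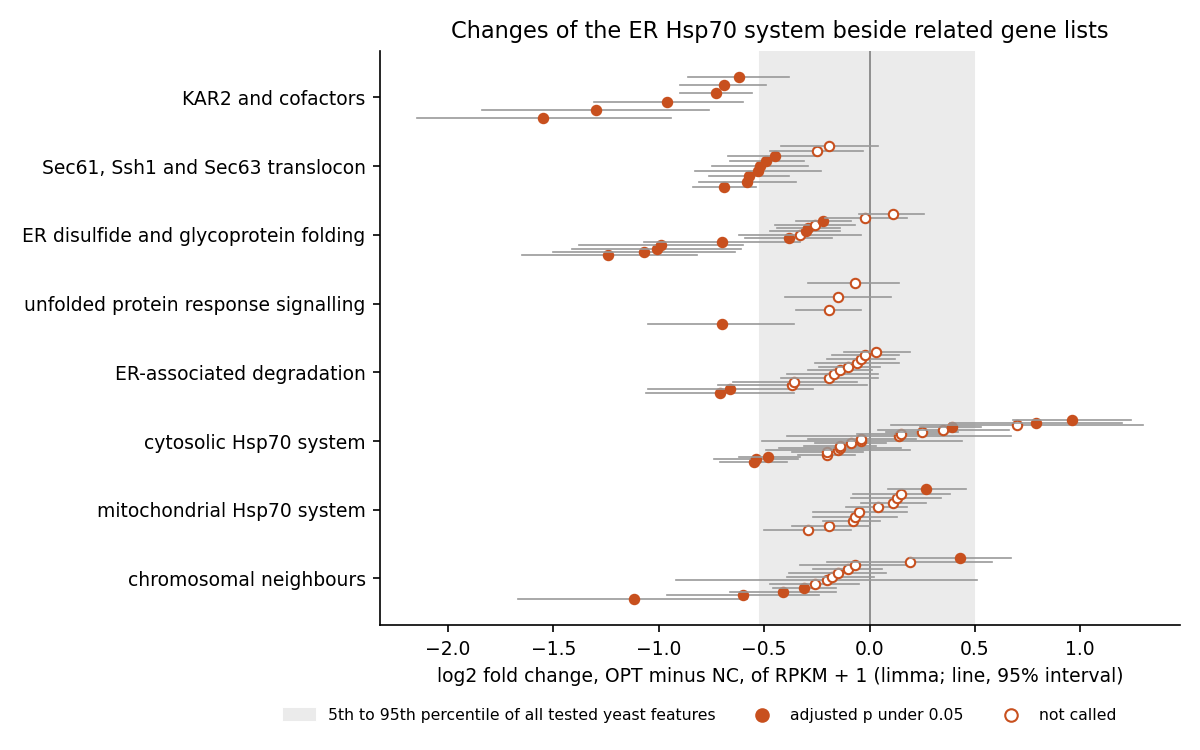
log2 fold change, OPT minus NC, of RPKM + 1 (horizontal axis) for each member and each gene of the related lists, with 95% intervals as lines, filled points where the limma adjusted p was under 0.05, and the band from the 5th to the 95th percentile of all tested yeast features (-0.52 to 0.50) in grey. All 6 members lie left of the band, most translocon genes lie at its edge, and most genes of the mitochondrial Hsp70 list lie near 0.

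Genes were also ranked by how closely their log2 profile over the 6 libraries, set against its own mean, followed that of KAR2, among 5436 protein-coding genes with a mean of at least 10 RPKM, the members left out. The 6 nearest of these were EUG1, ERO1, TAD2, YBR200W-A, MCD4 and MPD1, at root mean square differences of 0.09 to 0.19. Of these, EUG1, ERO1 and MPD1 are the ER oxidoreductase genes given above, MCD4 encodes an enzyme of GPI anchor synthesis, and YBR200W-A is a small gene with no assigned function. MCD4 had 53.8, 54.8 and 59.0 RPKM in OPT and 123, 123 and 152 RPKM in NC. Of the members, SIL1 lay at 0.16 and LHS1 at 0.21 from KAR2, and SCJ1, JEM1 and ERJ5 at 0.37 to 0.39. The profile of SIL1 was nearer to that of KAR2, at 0.16, than to that of any of the 5436 genes, of which the nearest were FRE4 (a ferric reductase gene), EUG1, TAD2, YBR200W-A, CUP1-2 and CUP1-1, at 0.20 to 0.25. CUP1-1 and CUP1-2 encode the same metallothionein, so their separate values are uncertain, and the calls on these copies, on FRE4 and on YBR200W-A were each lost under 6 or more of the 13 alternatives (adjusted p up to 0.139).

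Of the nearest protein-coding genes on either side of the members, 12 in all, 4 fell and 1 rose, with a median log2 fold change of -0.19. Among all features tested, 13.8% were called lower and 5.38% higher. TAD2, a subunit of a tRNA adenosine deaminase, is read in the opposite direction from KAR2 across a gap of 325 bases, and it had 20.2, 16.9 and 18.8 RPKM in OPT and 33.2, 35.1 and 61.9 RPKM in NC. The strains did not overlap in TAD2, and its log2 fold change of -1.12 (limma adjusted p = 0.0181) came close to that of KAR2, with NC replicate 3 again the highest library. HCA4, on the other side of KAR2, did not pass (log2 fold change -0.20, adjusted p = 0.674). KEG1 beside ERJ5, SMC3 beside JEM1 and MUD2 beside LHS1 changed by -0.60, -0.41 and -0.31, and SAP155, on the other side of ERJ5, rose by 0.43 on the log2 scale. All 5 calls were lost without any 1 OPT library (counts of 0), 2 falls and no rise were called without NC replicate 2 or without the filter on low values, 2 falls with equal library medians, and 7 falls and 2 rises were called without NC replicate 3. In that last setting 25.1% of all features were called lower and 7.51% higher.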

How the data were processed

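The authors deposited 1 table of normalized RPKM, with a column for each mRNA library, per the file headers. Bowtie, TopHat and CASAVA 1.8.0 and the build R64 are named in the submitters' processing notes. How reads were counted, whether by strand, and how values were normalized further are not given in the sources used here. RPKM summed to 999285 to 999421 in a library, so values are shares of a total. Columns were matched to samples by library name; 3 empty lines and 1 repeated row were left out. Of 6347 features 5992 matched a RefSeq R64 gene, the source of coordinates and lengths. The members overlapped no other annotated gene. Reads per gene were estimated from value, length and a step taken from values worth up to 20 reads, since 97.9 to 100.0% of them (47 to 78 values in a library) were whole multiples of a step to within 0.15 reads, against 25.0 to 27.9% at other steps. Since values add up to a fixed total, the step alone does not give depth.

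A two-sided limma fit (version 3.58.1, R 4.3.3, eBayes with a trend, no covariates) of OPT minus NC was run on log2(RPKM + 1) for every feature whose mean reached 1 RPKM, with Benjamini-Hochberg adjustment over all of these. Fold changes on this scale understate those of low genes. Ratios and shares were compared with exact permutation tests (scipy 1.17.1). The design text calls the libraries biological replicates, but what set them apart is not given. The p-values thus set the strain difference against the spread between these libraries within a strain. Whether that spread covers independent cultures is not known.

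The members and lists were chosen with earlier results of these data known. Named genes were the members, the called genes of each list (the 2 most abundant where none was called), SSA, SSB and SSC1, the 6 nearest profiles to KAR2 and SIL1, and called neighbours. A few uncalled list genes were named beside them after their values were seen. URA3, the plasmid marker, was also named by the rule. It stood at 600 ± 8.58 RPKM in OPT and 999 ± 140 RPKM in NC (log2 fold change -0.73, limma adjusted p = 0.00729). The cause of this difference was not tested. Results were recomputed under 13 alternatives: each library left out, equal library medians, quantile normalization, arrayWeights, a common prior variance, a minimum mean of 10 RPKM or none, and a pseudocount of 0.1.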

Additional observations from a re-analysis of the deposited data

How the results depend on the processing

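The 6 members were lower in OPT under each of the 13 alternatives, and calls were lost for KAR2 alone (log2 fold change -1.24 without OPT replicate 1 and -1.30 without OPT replicate 2). Leaving out each library in turn gave 5 to 6 members called, and log2 fold changes of -1.44 to -1.02 for KAR2. The counts of falls ranged from 3 to 7 for the translocon, 4 to 9 for ER folding, 0 to 2 for unfolded protein response signalling, 0 to 3 for degradation, 0 to 1 for mitochondrial Hsp70 and 0 to 7 for neighbours. The counts of rises ranged from 1 to 7 for cytosolic Hsp70, 0 to 1 for mitochondrial Hsp70 and 0 to 2 for neighbours. With equal library medians, falls numbered 5 in ER folding, 1 in degradation and 2 among neighbours. Without the filter they numbered 1 in degradation and 2 among neighbours, with 0 rises in the mitochondrial list and 0 among neighbours. Quantile normalization left 1 fall in degradation, and a common prior variance 0 rises in the mitochondrial list. With arrayWeights, which gave NC replicate 3 a weight of 0.224, falls numbered 2 in unfolded protein response signalling and 1 in the mitochondrial list, and rises numbered 5 in the cytosolic list. The share of all features called lower itself moved from 3.80 to 25.1% across alternatives, and the share called higher from 2.24 to 7.87%. The log2 difference of the summed exchange factors over KAR2 was -0.00, ranged from -0.06 to 0.07 when a library was left out, and turned positive with quantile normalization (0.08), without OPT replicate 3 (0.07) and without NC replicate 1 (0.02); the cause was not tested. The other ratios and the KAR2 share kept their sign. The 2 libraries left in a group when a library is left out are assumed to vary like the other group. No paired analysis was possible because the labels carry no replicate numbers: those used here follow the order of deposit within each strain and tie no OPT library to an NC library. The planned description of promoter motifs and protein sequences was not run, since no sequences were used here.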

Other observations

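The neighbours of the members differed by orientation, a split made after their values were seen and given with no test. Of the 5 neighbours read in the opposite direction from a member across a shared upstream gap, 4 fell, namely TAD2, MUD2, SMC3 and KEG1, at gaps of 325, 236, 331 and 202 bases from KAR2, LHS1, JEM1 and ERJ5. The fifth, GAS5 beside SIL1 across 657 bases, had a log2 fold change of -0.07 (adjusted p = 0.662). Of the 3 neighbours that face a member's 3′ end, SAP155 rose and OPI10 and PSF2 did not pass (0.19 and -0.18), and none of the 4 neighbours in tandem was called. The log2 fold changes of the 4 falls ran from -1.12 to -0.31, and each of these calls was lost when any 1 OPT library was left out. With all libraries, 13.8% of all features tested were called lower and 5.38% higher.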
